A study of Homo sapiens with 8 samples.

Results

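The genes of the proteasome and of the cytosolic chaperonin were followed across 8 Illumina bead arrays of human breast cell cultures. Members were all probes whose platform gene symbol begins with PSMA, PSMB, PSMC or PSMD and a number, is TCP1, or begins with CCT and a number. These were 64 of 24526 probes, for 46 of 16922 genes. The rule also took in 5 probes of 3 genes that only share a name with subunits: PSMC3IP, a partner of meiotic recombination proteins, CCT8L2, a copy of CCT8, and CCT6P1, a CCT6A pseudogene. That left 59 probes for 43 subunit genes, 34 of the proteasome and 9 of the chaperonin. The 34 include PSMD5, PSMD9 and PSMD10, assembly chaperones of the regulatory particle, which are counted with the PSMD subunits throughout.

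The proteasome is the barrel-shaped protease that degrades ubiquitin-tagged proteins. Its core particle is built of rings of PSMA (alpha) and PSMB (beta) subunits. A regulatory particle of PSMC ATPases and PSMD subunits unfolds the substrates and feeds them in. In cells exposed to interferon-gamma, PSMB8, PSMB9 and PSMB10 replace the catalytic subunits PSMB5, PSMB6 and PSMB7 and form the immunoproteasome, which cuts peptides for HLA class I display. The chaperonin TRiC, a double ring of TCP1 and CCT subunits, folds actin, tubulin and other newly made proteins. Constitutive subunits of both machines are expressed in all dividing cells.

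Each group was 1 array. The basal-like breast cancer lines SUM1315, MDA-MB231 and SUM159 carried no construct. Further SUM159 cells carried a stable LacZ construct, the bacterial control gene, or one for IRX5, a homeobox transcription factor. HMLE, an immortalized human mammary epithelial line, carried a stable construct for LacZ, for Gcnt2, a glycosyltransferase, or for Foxq1, a forkhead factor, and no untransfected HMLE array was analysed here. The design text names targets of Foxq1 and IRX5, and differences between the basal-like lines, as its questions. For the constructs, the labels used here name neither species nor promoter, and they do not say whether a culture was 1 clone.

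The values are the authors' normalized intensities, which have no unit, and the arrays share nearly the same distribution, with medians of 159.7 to 159.9. An intensity therefore shows a gene's place relative to the others in that array, and total RNA per cell cannot be seen. A difference in the share of expressing cells and a difference in level per cell cannot be told apart either. Differences and folds are of background-corrected values, so for dim probes a fold is larger than the ratio of the printed intensities, and a probe was compared where at least 1 array lay above a detection limit of 141. With 1 array per group there is no spread between replicates and no test was made, so counts of probes at least 2-fold apart stand beside the share of all probes that were. The FOXQ1 probe read 299 in the array labelled Foxq1 and 1641 in HMLE LacZ, against its label. The IRX5 probe read 151 in the array labelled IRX5 and 165 in SUM159 LacZ. Directions given for these arrays rest on the labels. The 9 epithelial marker probes summed to 21575 to 57747 in HMLE and 1159 to 3205 in the cancer arrays, where KRT5 and KRT14 were below the limit but KRT8 read up to 1756 and EPCAM 176 to 214. Of 20 leukocyte marker probes, 11 were above the limit in some array. The defining genes PTPRC, CD3E and CD79A read at most 154, while LCP1 read up to 2842, CD74 up to 1943, CD14 up to 1574 and CORO1A up to 953.

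Expression of the subunits was broad. Of the 64 probes, 60 were above the limit in at least 1 array and 58 in all 8. PSMA8, a testis form of the alpha ring, read 81.3 to 107, and a PSMA1 probe, ILMN_1760542, read 104 to 129, both below the limit throughout, while the other PSMA1 probes were above it in all 8 arrays. CCT8L2 and a PSMC3IP probe were the other probes under it. The PSMC6 probe stayed near the limit, between 133 and 194, which leaves little room to read a difference in that ATPase.

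**Figure D1:**
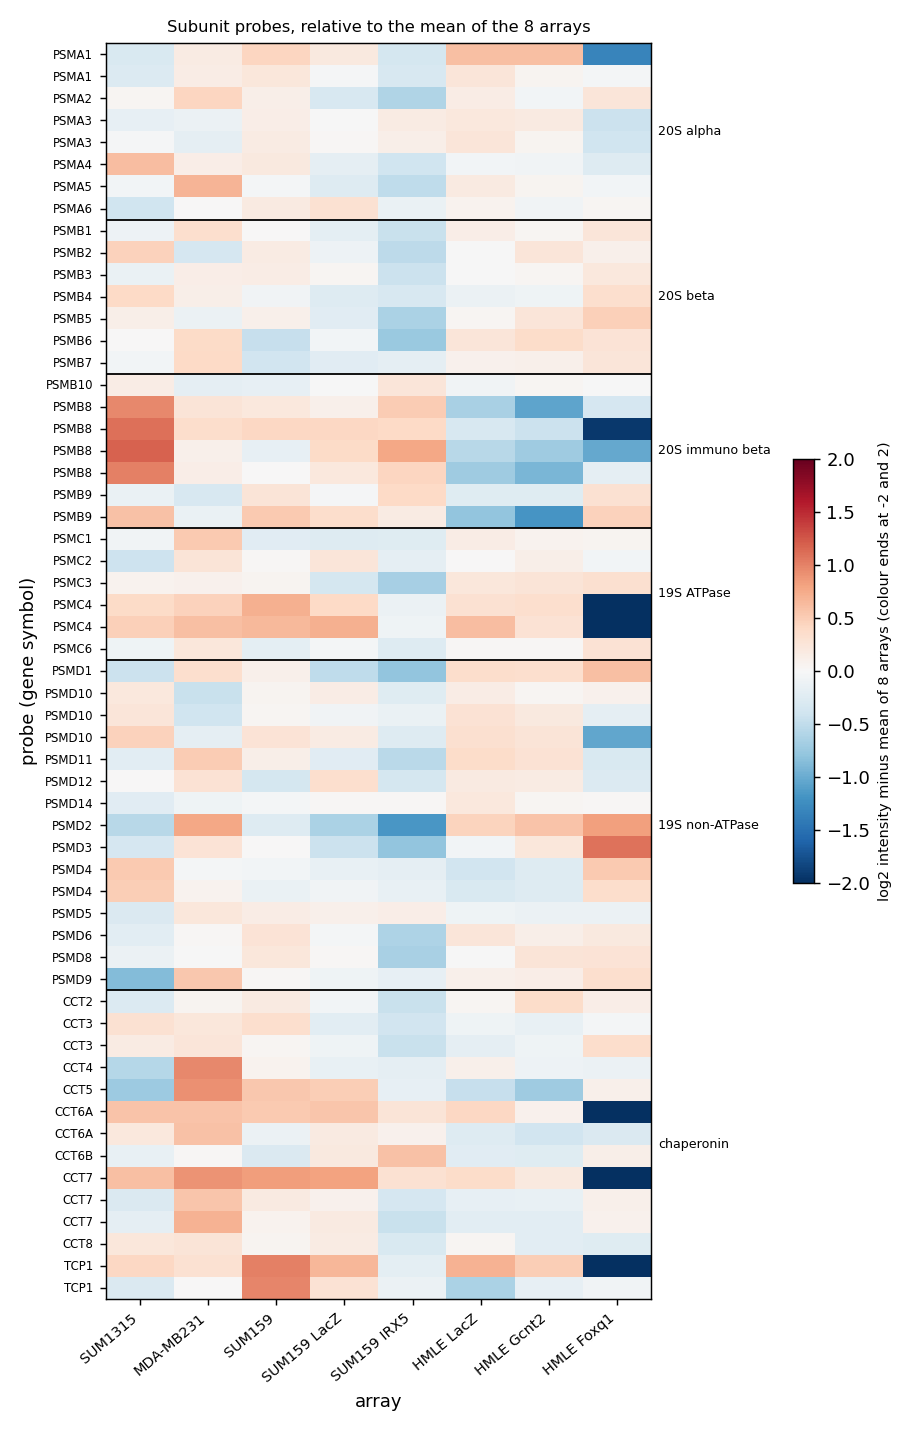
Each row is a detected subunit probe and each column an array, coloured by log2 deposited intensity minus the probe's mean over the 8 arrays, with rows grouped by part of the complex. The column labelled IRX5 is the lowest for many constitutive subunits, PSMB8 is high in SUM1315, and both probes of PSMC4 and 1 probe each of CCT6A, CCT7 and TCP1 are dark in the column labelled Foxq1.

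PSMB8, which takes the place of PSMB5, was highest in SUM1315 and lower in HMLE than in SUM159 by every one of its 4 probes. Its brightest probe read 5631 in SUM1315 and 3080 in MDA-MB231. In SUM159 it read 2831 untransfected, 3253 with LacZ and 3773 in the array labelled IRX5. In HMLE it read 1713 with LacZ, 1488 with Gcnt2 and 2474 in the array labelled Foxq1. SUM1315 stood above the other arrays, and the HMLE arrays were the lowest, with no overlap with SUM159.

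The other PSMB8 probes read 1446, 2187 and 525 in SUM1315, above all other arrays. In the SUM159 arrays they lay at 800 to 1058, 1343 to 1354 and 208 to 398, and in the HMLE arrays at 358 to 589, 265 to 811 and 114 to 159. For all 4 probes the SUM159 arrays lay above the HMLE arrays, by 1.78-fold to 2.59-fold between means. Without the array labelled Foxq1 these folds were 1.75 to 2.29. Of all probes, 21.0% were higher in SUM159 without overlap, and 4.99% were so with means at least 2-fold apart.

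PSMB9, the inducible counterpart of PSMB6, read 1339 in SUM1315 and 819 in MDA-MB231 by its brighter probe. The same probe gave 1280 in untransfected SUM159, 1138 in SUM159 LacZ and 1000 in the array labelled IRX5. In HMLE it gave 519 with LacZ, 396 with Gcnt2 and 1236 in the array labelled Foxq1, so the lines overlapped only through that array. Without it the SUM159 arrays were 2.61-fold above HMLE by means. The dimmer PSMB9 probe ranked the arrays otherwise, at 184 in SUM1315, 161 in MDA-MB231 and 199 to 267 in SUM159. It gave 170, 171 and 250 in HMLE with LacZ, with Gcnt2 and labelled Foxq1. By this probe SUM159 was 1.45-fold above HMLE without the array labelled Foxq1. PSMB10, the counterpart of PSMB7, moved little, from 3123 in MDA-MB231 to 4180 in the array labelled IRX5.

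The constitutive counterparts ran on other lines. PSMB5, which carries the chymotrypsin-like activity, read 7538 in SUM1315, 6464 in MDA-MB231, and 7485, 5967 and 4512 in SUM159 without a transgene, with LacZ and labelled IRX5. In HMLE it read 7192, 8245 and 9714 with LacZ, with Gcnt2 and labelled Foxq1. PSMB6, the caspase-like subunit, was lower in every SUM159 array (5521 to 8850) than in every HMLE array (10950 to 11858), 1.64-fold by means. PSMB7, the trypsin-like subunit, followed with 10822 to 12550 against 15055 to 16817. Of all probes, 15.3% were lower in SUM159 without overlap.

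**Figure D2:**
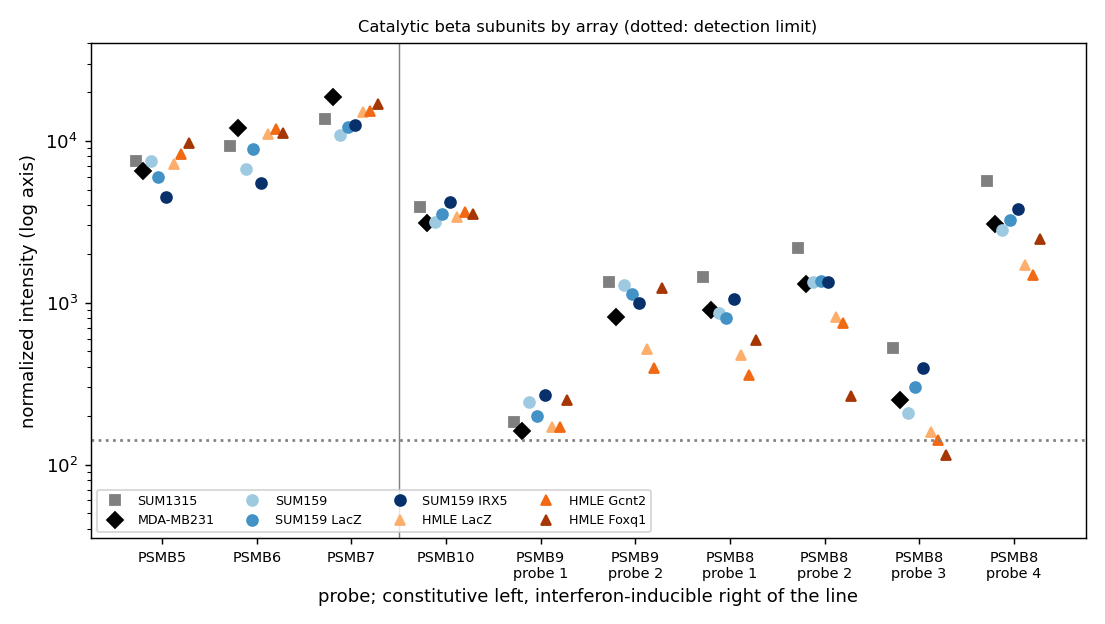
Normalized intensity on a log axis of the constitutive catalytic subunits PSMB5, PSMB6 and PSMB7 and of all probes of PSMB10, PSMB9 and PSMB8, 1 point per array. The HMLE triangles lie below the SUM159 circles for every PSMB8 probe and above them for PSMB6 and PSMB7.

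Genes that act with the immunoproteasome were read from a list of 16, of which 13 had probes. TAP1, the peptide transporter chain, was also highest in SUM1315, at 7291, against 3915 in MDA-MB231, 2695 to 3479 in the SUM159 arrays and 3094 to 3989 in the HMLE arrays. Between SUM1315 and untransfected SUM159, 5 of 16 probes of the list were at least 2-fold higher and 1 lower (median 0.44 on the log2 scale), where 9.15% of all probes were higher and 8.36% lower. IRF9, a factor of interferon signalling, was 7.09-fold higher there, and the tapasin gene TAPBP 3.61-fold, while GBP1, a guanylate-binding protein induced by interferon-gamma, was 4.17-fold lower. The proteasome activator PSME1, also interferon-inducible, read 11388 in SUM1315, 5890 in MDA-MB231, 8191 to 11243 in SUM159 and 6323 to 10141 in HMLE. IRF9 did not follow PSMB8 in HMLE: it read 2457 in HMLE LacZ, above every SUM159 array (365 to 825).

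Promoter sequence of the inducible subunits is shown because PSMB8 separated SUM159 from HMLE, while PSMB9 and PSMB10, the other inducible subunits, overlapped. PSMB5 is the constitutive partner of PSMB8, and TAP1 starts 488 bases from PSMB9 on the opposite strand. The 250 bases before each start are from RefSeq, GRCh38.p14, printed 5′ to 3′ on the gene's strand: PSMB8 chr6:32844680-32844929 (minus), PSMB9 chr6:32853942-32854191 (plus), TAP1 chr6:32853705-32853954 (minus), PSMB10 chr16:67936851-67937100 (minus) and PSMB5 chr14:23035221-23035470 (minus). Capitals mark matches on either strand to TGANNNNGC, GAANNTTC, TTCNNNGAA and to GAAA, any 2 bases and GAAA again. These are a loose form of the antioxidant core and the cores of the heat shock, interferon-gamma and interferon-stimulated elements.
PSMB8: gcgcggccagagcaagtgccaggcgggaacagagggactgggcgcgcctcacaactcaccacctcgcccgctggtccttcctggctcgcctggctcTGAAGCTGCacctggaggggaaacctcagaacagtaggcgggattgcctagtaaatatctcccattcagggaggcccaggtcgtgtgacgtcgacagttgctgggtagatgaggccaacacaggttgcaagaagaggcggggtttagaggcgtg
PSMB9: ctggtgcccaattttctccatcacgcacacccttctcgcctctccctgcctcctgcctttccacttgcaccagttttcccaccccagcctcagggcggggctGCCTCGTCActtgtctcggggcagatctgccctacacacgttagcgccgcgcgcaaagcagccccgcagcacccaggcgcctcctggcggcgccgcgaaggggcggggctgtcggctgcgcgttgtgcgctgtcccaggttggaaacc
TAP1: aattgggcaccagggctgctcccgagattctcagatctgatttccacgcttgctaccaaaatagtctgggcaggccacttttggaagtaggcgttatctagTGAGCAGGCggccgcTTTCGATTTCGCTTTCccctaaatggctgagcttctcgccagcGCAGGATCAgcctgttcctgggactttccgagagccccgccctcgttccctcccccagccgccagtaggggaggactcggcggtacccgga
PSMB10: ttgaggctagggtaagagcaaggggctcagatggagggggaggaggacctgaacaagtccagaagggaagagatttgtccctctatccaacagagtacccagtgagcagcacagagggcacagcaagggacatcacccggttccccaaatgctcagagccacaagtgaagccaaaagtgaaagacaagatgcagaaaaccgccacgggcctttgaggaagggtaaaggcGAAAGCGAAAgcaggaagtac
PSMB5: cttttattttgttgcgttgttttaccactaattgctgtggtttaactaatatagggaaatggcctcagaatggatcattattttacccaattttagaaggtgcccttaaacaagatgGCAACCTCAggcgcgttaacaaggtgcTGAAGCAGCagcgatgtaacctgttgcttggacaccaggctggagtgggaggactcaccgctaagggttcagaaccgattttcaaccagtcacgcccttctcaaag

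Of the 43 subunit genes, 38 matched an entry of the promoter table by symbol, and CCT6A, PSMB1, PSMB6, PSMB7 and PSMD4 did not. In the window from 250 bases before to 50 after the start, the interferon-stimulated core was found in 3 of the 38 (7.89%), PSMA4, PSMB4 and PSMB10, against 3.65% of 27305 promoters. In PSMB10 the match starts 21 bases before the gene, and TAP1 has 2 matches that overlap, at 134 and 128 bases before it, while the PSMB8 and PSMB9 windows have none. TGANNNNGC, a loose form of the antioxidant core of NFE2L1-type factors, was in 22 of 38 members (57.9%) and in 42.1% of all promoters. It leaves the base after TGA free, so a match need not be a site for such factors. PSMB5 has 2 such matches and PSMB8 and PSMB9 have 1 each. TTCNNNGAA was in 6 members (15.8%) and in 7.88% of all. GAANNTTC was in TCP1 alone (2.63%) and in 6.87% of all. A match is a stretch of letters only.

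Most constitutive subunits in each part of the proteasome and in the chaperonin were lower in the array labelled IRX5 than in both SUM159 controls, mostly by less than 2-fold, while PSMB10, the dim PSMB9 probe and 3 of 4 PSMB8 probes were higher. Of 60 detected member probes, 47 (78.3%) were below both controls and 9 above both. Among all 15251 probes detected in SUM159 these shares were 33.8% and 36.4%. Among probes that reach 2000 in SUM159, as most members do, 37.3% were below both, against 33 of 41 members (80.5%). This count was chosen after the values were seen, and both differences share the array labelled IRX5.

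By part of the complex, the array labelled IRX5 was below both controls for 6 of 8 alpha, 6 of 7 constitutive beta, 5 of 6 ATPase, 13 of 15 non-ATPase and 12 of 14 chaperonin probes. The 13 include PSMD12, whose deposited intensity was the same untransfected and labelled IRX5 (2639) and which was lower only after background correction. The array labelled IRX5 was above both for 5 of 7 probes of the inducible subunits, of which PSMB8 has 4. It was below both for the other 2, the brighter PSMB9 probe and a PSMB8 probe. The exceptions among constitutive genes were PSMA3, PSMB7, PSMD14, the deubiquitinase of the regulatory particle, and CCT6B, a testis form of CCT6, each with a probe above both controls. The median difference of constitutive subunits was -0.36 on the log2 scale against LacZ and -0.52 against untransfected SUM159. For the inducible subunits it was 0.25 and 0.30, and over all probes 0.02 and 0.01. Markers of other cell types differed in the same array. CD14 read 179 in untransfected SUM159, 426 with LacZ and 1072 labelled IRX5 by its brighter probe, LCP1 read 2829, 2842 and 862, and SPARC, a matrix gene of mesenchymal cells, 2631, 845 and 992. The summed leukocyte list read 5236, 5465 and 4245 in that order. Their part in the subunit values was not tested.

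In size the differences were small. Against LacZ no member was 2-fold apart, where 1.12% of all probes were higher and 1.84% lower. Against untransfected SUM159, 2 of 59 members were at least 2-fold higher and 2 lower, where 2.86% of all probes were higher and 3.22% lower. The lower pair were both probes of TCP1, the alpha subunit of the chaperonin. The brighter one read 4053 in untransfected SUM159, 3190 with LacZ and 1769 labelled IRX5. The dimmer read 610, 380 and 286 in the same order, so both probes ranked the SUM159 arrays alike. The fold from untransfected SUM159 to the array labelled IRX5 was 2.32 and 2.27. The higher pair were a dim PSMB8 probe (208, 301 and 398, 2.07-fold) and CCT6B (142, 198 and 262, 2.08-fold), both near the detection limit.

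PSMD2, a scaffold of the regulatory particle that receives ubiquitin-like domains, read 3629 in untransfected SUM159, 2808 with LacZ and 1948 labelled IRX5, the lowest of all 8 arrays. PSMC4, an ATPase, read 2644, 2770 and 1586 by its brighter probe and 2625, 2122 and 1480 by the other. CCT7, a chaperonin subunit with 3 probes, read 11281, 12202 and 7894 by the brightest, and the other probes were also lowest in the array labelled IRX5 among SUM159 arrays. CCT2 read 9664, 8198 and 6288, and CCT3 7688, 7061 and 5508 by its brighter probe. Over all 8 arrays, the array labelled IRX5 was the lowest for 25 of 60 members (41.7%), against 12.9% of 17396 probes.

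SUM159 LacZ was lower than untransfected SUM159 for 40 of 60 members, with a median of -0.11. Of all 14784 probes, 7753 were lower, with a median of -0.02. No member was 2-fold apart, where 2.12% of all probes were higher and 1.22% lower.

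**Figure D3:**
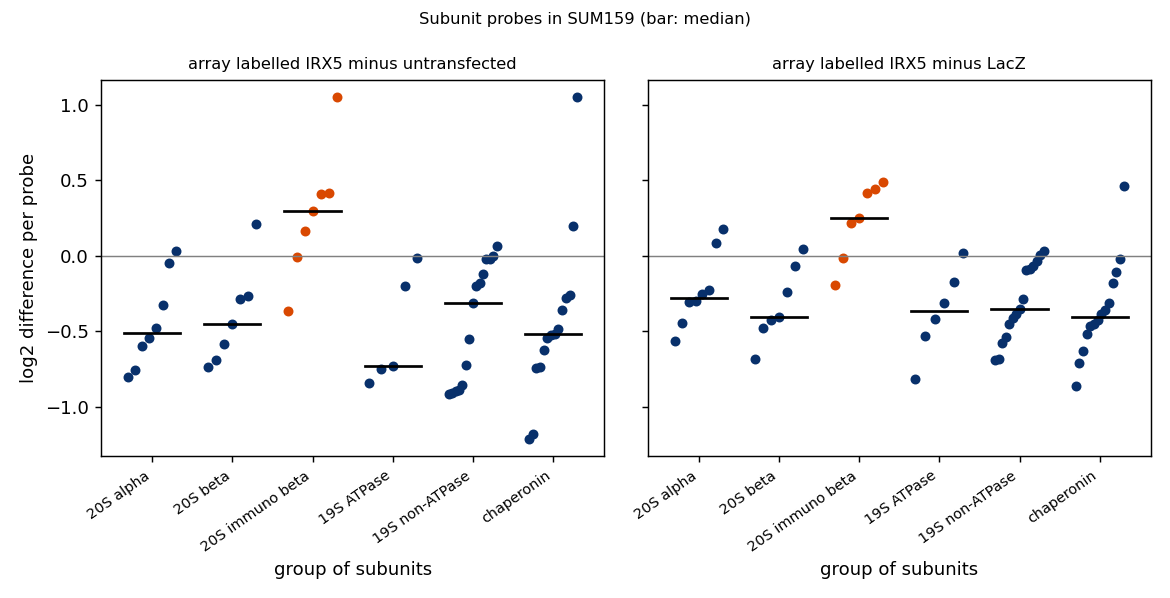
Each point is a subunit probe, placed by its log2 difference of the array labelled IRX5 from untransfected SUM159 (left) or from SUM159 LacZ (right), by group of subunits, with the group median as a bar. Medians of the constitutive groups lie between -0.73 and -0.28 and those of the inducible beta subunits (orange) at 0.30 and 0.25.

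Substrates and partners were read beside the machines. Of 17 probes for actin, tubulin and other chaperonin substrates, 15 were lower in the array labelled IRX5 than in LacZ, with ACTG1 at least 2-fold lower (24964 against 52678), and the median was -0.55. Against untransfected SUM159, 13 of 17 were at least 2-fold lower (median -1.17), among them TUBB4B (3.87-fold), TUBB6 (2.93-fold) and TUBG1 (2.86-fold). SUM159 LacZ was itself lower than untransfected SUM159 for 14 of the 17 (median -0.54), with TUBB4B 2.57-fold lower. Prefoldin and other chaperonin partners had medians of -0.15 and -0.20 against the LacZ and untransfected controls, with STIP1, a co-chaperone of HSP90, 2.24-fold and DNAJA1 2.15-fold lower than in untransfected SUM159. NFE2L1, the transcription factor that induces proteasome genes when the proteasome is inhibited, read 1041 in untransfected SUM159, 1498 with LacZ and 2491 labelled IRX5, 2.44-fold above the first. It was the only one of 20 probes for proteasome activators and assembly factors that was 2-fold apart there.

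Sequence before TCP1 is shown because both of its probes were at least 2-fold lower in the array labelled IRX5 than in untransfected SUM159. Against SUM159 LacZ their differences were -0.86 and -0.45 on the log2 scale. TCP1 alone of the 38 promoters also held GAANNTTC, which starts 231 bases before the gene. The region is chr6:159789603-159789852 of GRCh38.p14, minus strand, from RefSeq, with the match in capitals.
TCP1: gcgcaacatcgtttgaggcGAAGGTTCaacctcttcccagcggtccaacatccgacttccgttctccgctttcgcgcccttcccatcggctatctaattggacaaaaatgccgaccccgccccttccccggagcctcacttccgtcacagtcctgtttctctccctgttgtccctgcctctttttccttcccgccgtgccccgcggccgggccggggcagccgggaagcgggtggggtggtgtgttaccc

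In HMLE, the Gcnt2 array differed little from LacZ. No member was 2-fold apart, where 0.260% of all probes were higher and 0.726% lower, and the member differences ran from -0.44 to 0.54 on the log2 scale with a median of -0.04. All 8 alpha ring probes were lower, by 0.01 to 0.21, and 6 of 7 constitutive beta probes were higher. The lowest was a PSMB8 probe (358 against 474), and the highest the dim TCP1 probe (279 against 201).

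The array labelled Foxq1 showed 2 patterns against HMLE LacZ: a modest spread over most subunits, and a few probes that were almost lost. In all, 2 of 60 member probes were at least 2-fold higher and 9 lower, where 5.52% of all probes were higher and 6.85% lower. The median of the members was -0.0019 on the log2 scale, with 30 probes higher and 30 lower. All 7 constitutive beta subunits were higher, by 0.02 to 0.46, and 7 of 8 alpha probes lower. PSMD3, a scaffold of the regulatory lid, was 2.27-fold higher, at 1230 against 559, and no other array read above 702. PSMD4, the ubiquitin receptor, was higher by both probes (8020 against 4293 and 5806 against 3689), each under 2-fold. PSMB9 was 2.47-fold higher by its brighter probe and higher by 0.65 on the log2 scale by the other.

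The lost probes were in 4 chaperonin and proteasome genes. CCT7 read 219 in the array labelled Foxq1 and 4563 in LacZ by probe ILMN_1662954, 24.2-fold lower. Its other 2 probes were slightly higher instead, 11375 against 9307 and 3680 against 3056. In the other 7 arrays the first probe lay between 4061 and 6634.

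TCP1 read 194 against 3258 by its brighter probe, 19.8-fold lower, and 297 against 201 by the dimmer. CCT6A, the zeta subunit, read 436 against 4597 by ILMN_1719611, 11.3-fold lower, but 2577 against 2624 by its other probe, and the CCT6P1 probe, which may share sequence with CCT6A, read 3323 against 4272. In these 3 genes a probe less than 2-fold from the LacZ level stood beside one over 10-fold below it.

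PSMC4 was the exception, low by both probes: 176 against 2584 (17.6-fold) and 285 against 1977 (7.65-fold). The next lowest array for these probes was the one labelled IRX5, at 1586 and 1480. PSMB8 was split like the chaperonin genes, 265 against 811 by ILMN_1767006 (3.33-fold lower) and 2474 against 1713 by its brightest probe. PSMA1 read 806 against 3077 by ILMN_1691809 (3.93-fold lower) and 9833 against 11954 by the bright probe. PSMD10, an assembly chaperone also called gankyrin, read 531 against 1354 by its middle probe (2.65-fold lower), 343 against 474 and 2761 against 2889 by the others. The remaining 2-fold difference was PSMC3IP, no subunit, at 287 against 940.

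Of 12 member genes with more than 1 detected probe, 4 (PSMB8, CCT6A, CCT7 and TCP1) had probe differences more than 4-fold apart, where 130 of 1795 genes did (7.24%). Among probes above an intensity of 500, it was 3 of 10 member genes and 86 of 649 genes (13.3%). In the other 7 comparisons of 2 arrays, none of the 12 did, where 0% to 3.69% of all genes did. Members at least 2-fold below each of the other 7 arrays in the array labelled Foxq1 numbered 6 of 60, the probes of PSMC4, CCT6A, CCT7, TCP1 and PSMB8 above, where 1.60% of all probes were. It was the lowest of the 8 arrays for 13 members, 21.7% against 16.0% of all probes. By the platform annotation, the low probe of PSMB8 and of CCT6A is assigned to another transcript than the other probes of that gene. Both TCP1 probes are assigned to the same transcript, and so are the lost CCT7 probe and the 1 at 3680 against 3056. Which part of the transcript each probe reads is not given in the files used here. Whether the split follows transcript form or hybridization was not tested. Most subunit genes have 1 probe, so PSMD3 could not be checked in this way. When each gene was represented by its detected probe nearest to 0, 1 gene was 2-fold higher and 1 lower, PSMD3 and PSMC4.

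**Figure D4:**
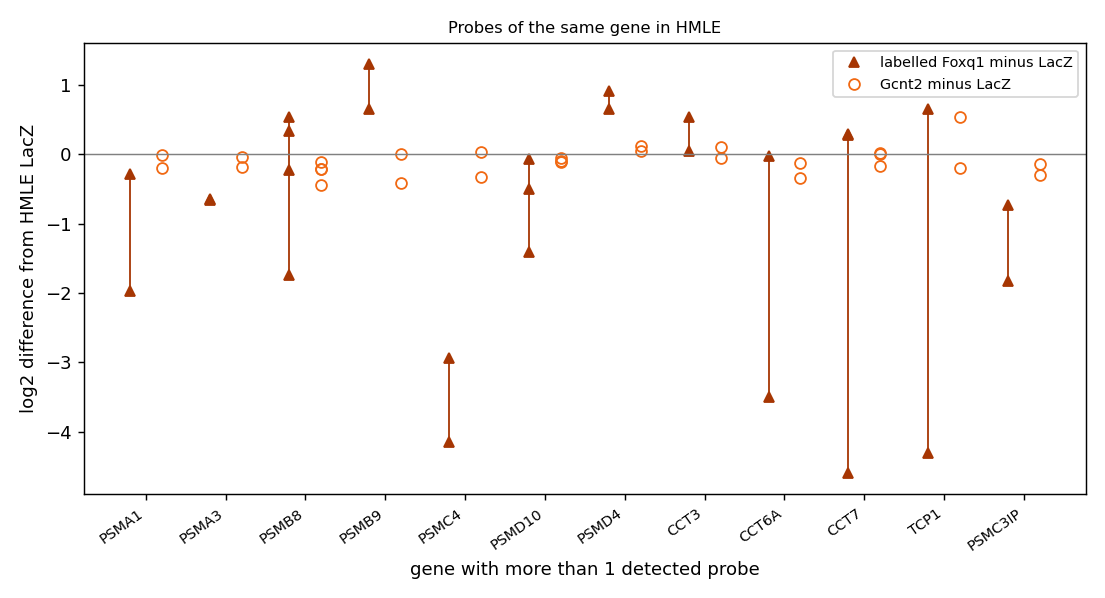
Log2 differences from HMLE LacZ for the 12 member genes with more than 1 detected probe, as triangles for the array labelled Foxq1, joined by a line per gene, and open circles for Gcnt2. The triangles of CCT7, TCP1 and CCT6A span 4.89, 4.95 and 3.47 on the log2 scale, while all circles lie between -0.44 and 0.54.

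Partners and substrates were read in the same array. None of 21 probes for activators and assembly factors was 2-fold apart (median -0.03). Of 17 chaperonin substrate probes, one of TUBB6 was 9.44-fold lower (326 against 2817) while the other read 4850 against 4801, and a dim TUBG1 probe read 133, below the limit, against 279. Of 23 partner probes 3 were at least 2-fold lower. A dim probe of HSPD1, the mitochondrial chaperonin, read 134 against 428, while its bright probe read 15224 against 16256. HSF1, the heat shock factor, read 106 against 303, and the prefoldin PFDN6 340.4 against 651. Of 15 probes of the immunoproteasome list, 12 were higher (median 0.27), where 8180 of all 15108 probes were higher (median 0.04). HLA-F was 2.69-fold higher. A TAP2 probe read 122 against 334, while the other read 712 in both. Cell type markers also differed in this array: all 9 epithelial probes were lower than in LacZ, 3 of them at least 2-fold (summed 21575 against 41903). The mesenchymal probes summed to 47822 against 27212, mostly through VIM (35642 against 16941). Of 7 mesenchymal probes compared, 3 were higher, each at least 2-fold, and 4 lower (median -0.70), with CDH2 at 3301 against 6067. The part of these markers in the subunit values was not tested.

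MDA-MB231 had higher levels of most constitutive subunits than SUM1315, but not clearly more than untransfected SUM159. It was the highest of the 8 arrays for 19 of 60 members (31.7%), where it was the highest for 16.6% of all probes. SUM1315 was lower than MDA-MB231 for 38 of 50 constitutive subunit probes (median -0.30) and higher for all 7 inducible ones (median 0.73), where 7703 of all 15354 probes were lower and 7651 higher (median -0.0022). Against untransfected SUM159, MDA-MB231 was higher for 29 of 50 constitutive probes and lower for 21 (median 0.07), and lower for 6 of 8 alpha probes. Between SUM1315 and MDA-MB231, 1 member was at least 2-fold higher and 4 lower, where 10.3% of all probes were higher and 10.0% lower, so members 2-fold apart were no more common than among all probes.

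The 4 lower members were CCT5, CCT4, PSMD9 and PSMD2. CCT5, the epsilon subunit of the chaperonin, read 253 in SUM1315 and 791 in MDA-MB231 (3.43-fold), with 374 to 605 in SUM159 and 256 to 448 in HMLE. CCT4, the delta subunit, read 412 and 1193 (3.05-fold), with all other arrays from 543 to 655. Both have 1 probe. PSMD9, a chaperone of ATPase ring assembly, read 228 and 599 (2.89-fold), and the other arrays 369 to 522. SUM1315 was the lowest array for CCT4, CCT5 and PSMD9, and MDA-MB231 the highest, though for CCT5 the Gcnt2 array lay next to SUM1315.

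PSMD2 divided the lines otherwise. It read 2943 in SUM1315, 7449 in MDA-MB231, 1948 to 3629 in SUM159 and 5926 to 7681 in HMLE, so that MDA-MB231 lay with HMLE. PSMD1, the other large scaffold, read 1928, 3284, 1504 to 2800 and 3271 to 3928 in the same order.

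Against untransfected SUM159, SUM1315 had 2 members at least 2-fold higher, both PSMB8 probes, and 4 lower, where 9.15% of all probes were higher and 8.36% lower. The lower probes were CCT5 (2.59-fold), the dim TCP1 probe (2.59-fold) and 2 of PSMC3IP. MDA-MB231 had 1 higher, PSMD2 (2.06-fold), and 1 lower, the dim TCP1 probe (2.05-fold), where 6.62% and 6.60% of all probes were. These comparisons share arrays.

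ADRM1, a ubiquitin receptor of the regulatory particle, read 9646 in MDA-MB231, 5463 in SUM1315 and 3314 in untransfected SUM159 by its brighter probe, and was 2.93-fold and 2.79-fold higher in MDA-MB231 than in SUM159 by its probes. PSME3, the nuclear activator PA28 gamma, read 3370 in MDA-MB231, 952 in SUM1315 and 2135 in untransfected SUM159. ECPAS, which binds assembled proteasomes, was 6.08-fold lower in SUM1315 than in MDA-MB231. Of 21 activator and assembly probes, 4 were at least 2-fold lower in SUM1315 than in MDA-MB231 and none higher. Both PSME3 probes were among the 4. Over all probes 10.0% were lower and 10.3% higher. By any amount, 11 of the 21 were higher and 10 lower in SUM1315 (median 0.16).

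The SUM159 and HMLE lines were set side by side over 3 arrays each, which carry different constructs and are no replicates, so no test was made. PSMB8 was higher in SUM159 and PSMD2 lower. With no overlap between lines and means at least 2-fold apart there were 3 member probes higher in SUM159, all of PSMB8, and 1 lower, PSMD2 (2.47-fold). Over all probes these shares were 4.99% and 5.98%. By lack of overlap alone, 6 members were higher and 9 lower in SUM159, where 21.0% of all probes were higher and 15.3% lower. The 9 were PSMB1, PSMB6, PSMB7, PSMC1, PSMC3, PSMC6, PSMD1, PSMD2 and PSMD9, a share near that of all probes. Without the array labelled Foxq1, probes of PSMA1, PSMA3, PSMA5, PSMD10, PSMD11 and PSMD14 were also lower in SUM159 without overlap. The other detected probes of PSMA1, PSMA3 and PSMD10 still overlapped. PSMC3, an ATPase, read 2564 to 4235 in SUM159 and 4752 to 5074 in HMLE. Besides PSMB8, PSMD5, another assembly chaperone, and a CCT6A probe were higher in SUM159. Without the array labelled IRX5, 16 members were higher, and without the array labelled Foxq1, 12 were higher and 15 lower. Lack of overlap is easier for any probe with fewer arrays. The shares over all probes were not taken for these sets, so the larger counts are no result about the members.

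**Figure D5:**
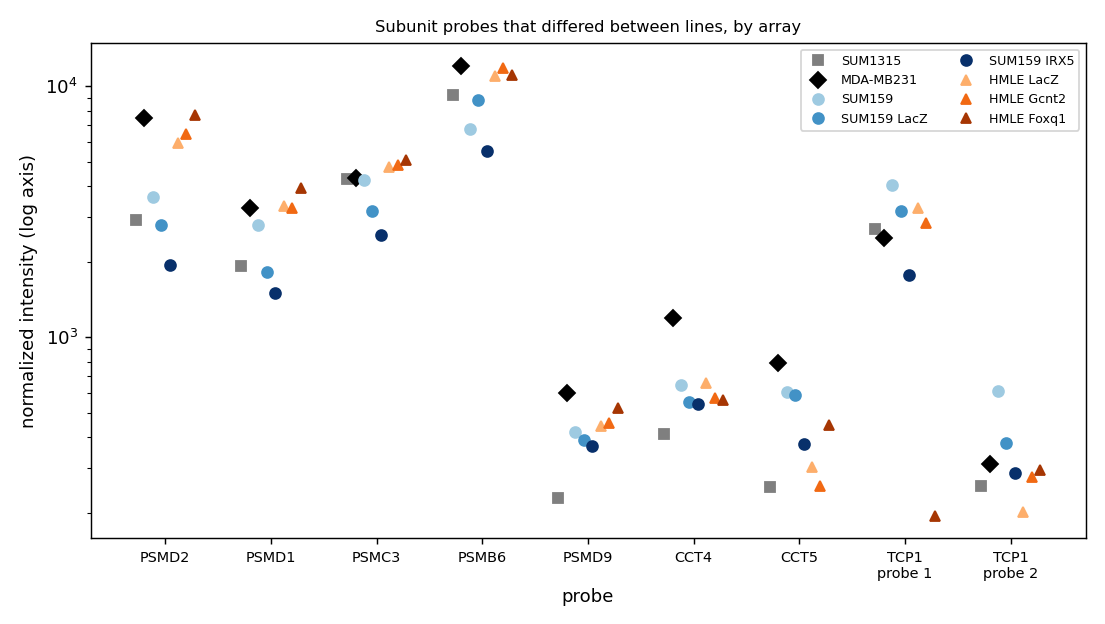
Normalized intensity on a log axis of 9 subunit probes, 1 point per array. PSMD2 lies high in MDA-MB231 and the HMLE arrays, CCT4, CCT5 and PSMD9 are highest in MDA-MB231 and lowest in SUM1315, and the brighter TCP1 probe is at 194 in the array labelled Foxq1.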

How the data were processed

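The 8 cultures were each run on 1 Illumina HumanRef-8 v3 array, so each group is 1 array. The deposited table gives the authors' normalized intensity per probe on a linear scale (73.3 to 56056). At equal rank the arrays' values vary by at most 1.27% (coefficient of variation). GenomeStudio, lumi 1.14 and R 2.11.1 are named, per the submitters' processing notes, without roles, and no source used here states the authors' background correction. The unnormalized table was left out because no label ties its 16 columns to samples.

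The deposited intensities were background-corrected by normexp with an offset of 50 (limma 3.58.1 in R 4.3.3), and log2 was taken. The detection limit of 141 mirrors the spread below the mode (109, on the log2 scale) at a tail of 0.01. Values under it were raised to it in differences, and for such probes only the deposited intensities are given. Places (below both controls, lowest of the 8 arrays) use unraised values. Every probe was kept apart. Gene symbols are those of the platform annotation, and for the lists of other genes 21813 probes had symbols updated through RefSeq by Entrez number.

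Full values are given for the catalytic beta subunits and their inducible counterparts, members 2-fold apart in a pair of arrays or with probes over 4-fold apart, and up to 3 list genes per direction. Other genes were named after their values were seen. Members, lists and rules were chosen with earlier results of these data known. The calculations were tested on simulated arrays (Python 3.11.15, numpy 2.4.6, pandas 2.3.3, matplotlib 3.10.9). The number of arrays limits the precision, and no test was made.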

Additional observations from a re-analysis of the deposited data

How the results depend on the processing

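No paired analysis was possible because each group is 1 array and the labels give no replicate numbers. All 28 differences of single member probes at least 2-fold apart kept their direction under deposited values, cyclic loess, a detection limit of 131 and no filter. With only the brightest probe per gene, the numbers of members at least 2-fold apart were 4 lower for Foxq1 against LacZ, 1 higher and 1 lower for IRX5 against untransfected SUM159, 0 higher for SUM1315 against MDA-MB231, 1 higher and 2 lower for SUM1315 against SUM159, and 0 lower for MDA-MB231 against SUM159. The same setting gave 5 genes in the array labelled IRX5 above both controls, 6 lowest in the array labelled Foxq1, and for SUM159 against HMLE 0 higher 2-fold and 2 higher without overlap. These follow from fewer probes. The detected probe nearest to 0 gave 1 higher and 1 lower for Foxq1 against LacZ.

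Log2 of the deposited values gave 0 members higher for IRX5 against untransfected SUM159, 1 for SUM1315 against SUM159, 0 lower for MDA-MB231 against SUM159, and 1 higher for SUM159 against HMLE. With cyclic loess 14 members lay lower in SUM159 than in HMLE without overlap. Without the array labelled IRX5, 6 were higher 2-fold and 16 without overlap. Without the array labelled Foxq1, 12 were higher and 15 lower without overlap. No shares over all probes were taken with an array left out, and fewer arrays make lack of overlap easier for any probe. Leaving out probes that only share a name with subunits gave 2 lower for SUM1315 against SUM159. The number below both controls in the array labelled IRX5 stayed within 1.5 times of 47 under every alternative run. The settings that left out an array or name-sharing probes or took the probe nearest to 0, and all alternatives for the counts below or above both controls and lowest of the 8, were chosen after seeing the data. Dim probes such as PSMC6 limit what can be read.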

Other observations

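Lists that the comparisons above leave out gave the following values. Ubiquitin and p97 genes (12 probes) had no member 2-fold apart in any comparison within a line, with medians from -0.15 to 0.14 on the log2 scale. Between lines, RAD23B, which carries ubiquitinated proteins to the proteasome, was 3.05-fold lower in SUM1315 than in MDA-MB231 and 2.52-fold lower than in untransfected SUM159. UBB, a polyubiquitin gene, read 42782 in MDA-MB231 and 20278 in untransfected SUM159. UBA1, the ubiquitin-activating enzyme, read 138 against 282 there by its dim probe and 2658 against 4232 by the bright one.

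Among the chaperonin partners, HSP90AA1, an inducible HSP90, was 3.59-fold higher in SUM1315 than in MDA-MB231 by its dim probe (537 against 172), while the bright probe read 41591 against 36536. DNAJB1, a heat shock co-chaperone, was 3.09-fold higher in SUM1315 than in MDA-MB231 and 2.46-fold higher than in untransfected SUM159. The prefoldin subunit PFDN4 was 2.98-fold lower in SUM1315 than in MDA-MB231. No chaperonin substrate probe was 2-fold apart between the untransfected cancer lines, among 17. CD74, a leukocyte marker and partner of HLA class II, read 1943 in MDA-MB231 and 162 to 401 in the other arrays by its brightest probe, and the summed leukocyte list read 2514 in SUM1315, where PSMB8 was highest, and 3853 to 5465 in the others. The part of these in the PSMB8 levels was not tested.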
